A study of Homo sapiens with 14 samples.

Results

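The comparison described here asks what CGS-21680 added to cells that also received a low dose of dexamethasone. It sets MM1S cells treated for 6 h with 12.5 nM CGS-21680 together with 25 nM dexamethasone (called the combination below) against MM1S cells treated for 6 h with 25 nM dexamethasone alone. Each group had 2 arrays, so the groups compared hold 4 of the 14 arrays of the series, chosen by the sample titles alone. The arrays measure total RNA from whole cultures, and 9301 genes were compared. MM1S is an established human multiple myeloma cell line that responds to glucocorticoids, and every value comes from this 1 line, grown in RPMI-1640 with fetal bovine serum. CGS-21680 is an agonist of an adenosine receptor and dexamethasone is a synthetic glucocorticoid. Untreated cells, 12.5 nM CGS-21680 alone, and 1 nM salmeterol with 25 nM dexamethasone are used below to show where the combination differs. These groups were also taken at 6 h with 2 arrays each. Cells given 1 nM salmeterol alone or 2 µM dexamethasone are not compared below. All 14 arrays, these included, supplied the estimate of the spread and the filter on low levels. The titles call the replicates biological. How the cultures were kept apart is not stated, and the p-values therefore reflect the spread among these arrays only, part of which may be technical.

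The receptor couples to the stimulatory G protein, which turns on adenylyl cyclase. The cyclic AMP that is made activates protein kinase A, which phosphorylates the transcription factor CREB, and phosphodiesterases and regulators of G-protein signalling (RGS proteins) shut the pathway down. Dexamethasone acts through the glucocorticoid receptor, itself a transcription factor, and glucocorticoids are used against myeloma because they kill plasma cells and their malignant counterparts. In lymphoid cells the proapoptotic protein BIM, made from BCL2L11, is a known mediator of glucocorticoid-induced death, and myeloma cells rely on IRF4 and MYC, both transcription factors.

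All 8 plasma cell markers checked were measured, with log2 levels from 5.75 to 13.15 over the 14 arrays. None of 5 T and NK cell markers and none of 4 monocyte markers passed the filter on low levels, and COL1A1 among 4 stromal markers and HBB among 2 erythroid markers did. The median log2 level of the genes compared lay between 7.44 and 7.63 on the 14 arrays. Replicates correlated at 0.992 for dexamethasone alone and 0.988 for the combination across genes, and the differences between replicates had a standard deviation of 0.286 and 0.341 in log2. All levels and differences below are log2 values, so a difference of 1 is a doubling. Errors after ± are standard errors of the limma model, in which all 7 groups of the series share one estimate of the spread. Receptor genes were not analysed here.

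CGS-21680 changed 316 of the 9301 genes in dexamethasone-treated cells (3.4%) at an adjusted p under 0.05, 163 of them upward (1.75%) and 153 downward (1.64%). Of these, 76 rose and 65 fell by at least 2-fold, and 20 rose and 5 fell by at least 4-fold, so the far end of the changes lay on the side of the rises. Together the called genes of at least 2-fold were 1.52% of all genes. The largest rises were in STAT4, DNAAF1 and TESC, and the largest fitted falls in C11orf96, HDAC9 and TMC5. The phosphodiesterase gene PDE4B and the G-protein regulators RGS1 and RGS2 rose, as did TSC22D3, GADD45A and SGK1, which are listed as glucocorticoid-induced. Dexamethasone alone raised TSC22D3 (6.03), while GADD45A did not pass (0.21) and SGK1 fell (-0.60). IRF4, MYC and the ribosome biogenesis genes WDR3 and DDX21 fell with the combination. In all 316 genes the arrays of the 2 groups did not overlap, which was also the case for 3780 genes overall (40.6%), higher in 20.9% and lower in 19.8%. The call depended on the number of arrays: 99 genes passed without low dexamethasone replicate 1, 128 without low dexamethasone replicate 2, 198 without combination replicate 1 and 163 without combination replicate 2. With the spread estimated from these 4 arrays alone limma called 0 genes (smallest adjusted p = 0.147, 1342 genes at an unadjusted p under 0.05). In total 73 of the 316 genes passed in all 4 fits that left out 1 array. A gene said below to have risen or fallen is one of these 73 unless arrays are named beside it, without which it did not pass.

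**Figure D1:**
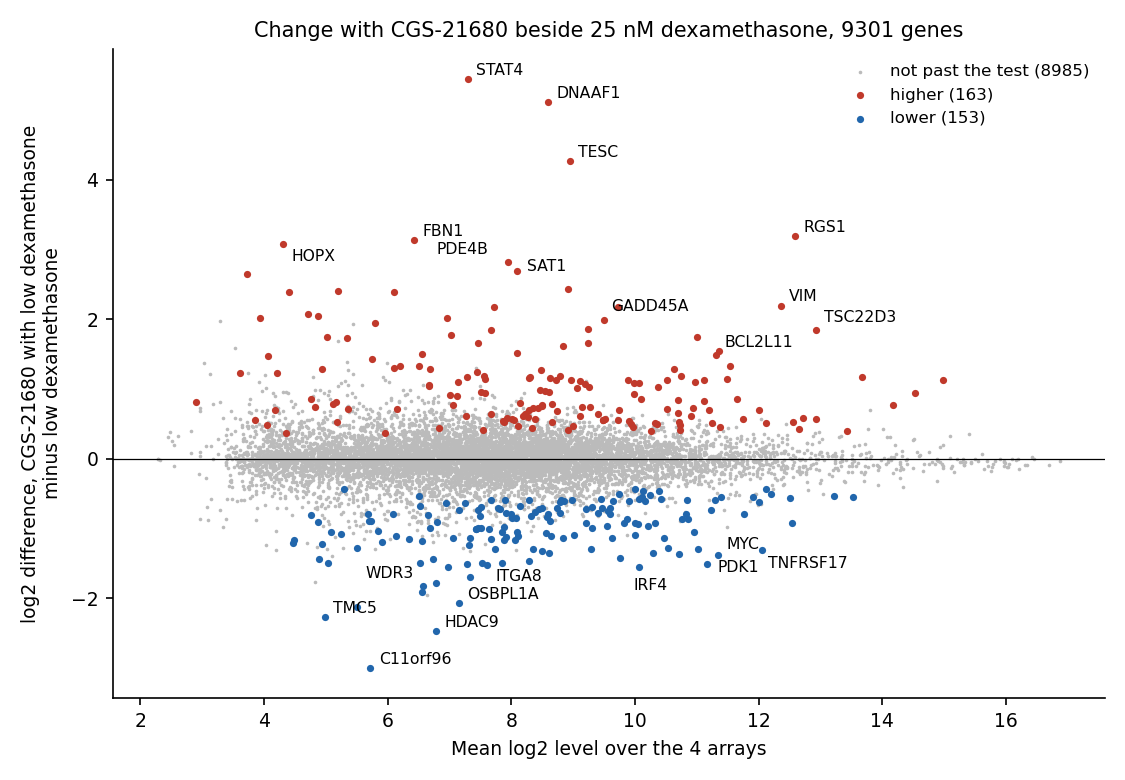
Difference between the combination and dexamethasone alone (vertical axis, log2) against the mean log2 level over the 4 arrays (horizontal axis), 1 point a gene. The 163 genes that were higher are red, the 153 that were lower are blue, and the genes that did not pass are grey; STAT4, DNAAF1 and TESC stand above all other genes.

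STAT4, a transcription factor activated by interleukin-12 and type I interferon receptors, had log2 levels of 4.08 and 5.07 with dexamethasone and 9.94 and 10.11 with the combination. Both dexamethasone arrays were near the low end of the scale and both combination arrays far above them, a difference of 5.45 ± 0.287 or 43.8-fold (adjusted p = 2.92e-05). DNAAF1, which encodes an assembly factor of axonemal dyneins, went from 6.26 and 5.82 to 10.96 and 11.35, a log2 difference of 5.12 ± 0.24 (adjusted p = 1.54e-05). Its other probe set hardly changed, although the sign of its difference was negative, and the mean of both gave 2.56. TESC, encoding the calcium-binding protein tescalcin, was at 6.81 on both dexamethasone arrays and at 10.90 and 11.26 with the combination (4.27 ± 0.126, adjusted p = 4.24e-07). Dexamethasone alone, compared with untreated cells on arrays that include the same dexamethasone arrays, changed 433 genes (4.66%), 230 upward (2.47%) and 203 downward (2.18%), and its values are set beside those of single genes. These 3 genes also rose with CGS-21680 alone, by 4.22, 2.87 and 3.55, and had differences of 0.01, 0.49 and 0.02 with dexamethasone alone, none of which passed.

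FBN1 and HOPX had another pattern. FBN1 encodes fibrillin-1 of extracellular microfibrils and had levels of 4.75 and 4.96 with dexamethasone and 7.88 and 8.12 with the combination (3.14 ± 0.177, adjusted p = 3.31e-05), while its difference with CGS-21680 alone was -0.20. HOPX, an atypical homeodomain protein, was at 2.78 on both dexamethasone arrays, near the floor of the deposited values at 2.29, and at 5.48 and 6.23 with the combination (3.08 ± 0.245, adjusted p = 0.000277). Because levels under 4 lie near that floor, the rise of HOPX is better read as at least 3.61-fold. SAT1, the acetyltransferase that starts polyamine breakdown, rose from 6.49 and 7.01 to 9.28 and 9.60 (2.69 ± 0.225, adjusted p = 0.00034). SYAP1 rose by 2.43, and SV2C, a synaptic vesicle glycoprotein gene, by 2.41. FGL2, a fibrinogen-like protein gene, had combination levels of 4.24 and 5.86, which differ widely, against 2.43 and 2.39 (2.64 ± 0.389, at least 2.07-fold, not without low dexamethasone replicate 1 or 2, and not with levels under 4 raised to 4). FAAH2, a fatty acid amide hydrolase gene, had dexamethasone levels of 4.13 and 5.68 and rose by 2.40 ± 0.538 (adjusted p = 0.0469, not without low dexamethasone replicate 1 or combination replicate 1 or 2).

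Promoter sequence was searched for the cyclic AMP response element, the CREB binding motif, in a window from 250 bases before to 50 after each gene's start (RefSeq, GRCh38.p14). The full motif, TGACGTCA, reads the same on both strands, and each full motif also holds the core TGACG, which was searched on both strands. The full motif was in 10 of 131 promoters of genes that rose (7.63%), in 8 of 126 of genes that fell (6.35%), in 270 of 7720 of all genes compared (3.5%) and in 540 of 27305 of all promoters of the table (1.98%). The core was in 35.1%, 33.3%, 36.4% and 25.0% of the same sets. Of 35 named genes that rose, 27 had a promoter in the table and 2 held the full motif, and the 250 bases before their starts are printed 5′ to 3′ to show where it lies, with the motif in capitals. In SYAP1 (chrX:16719362-16719611, plus strand) it begins 92 bases before the start, and in DUSP1 (chr5:172771196-172771445, minus strand) 125 bases before it. The match is a description of these letters, not a measurement of binding.
SYAP1: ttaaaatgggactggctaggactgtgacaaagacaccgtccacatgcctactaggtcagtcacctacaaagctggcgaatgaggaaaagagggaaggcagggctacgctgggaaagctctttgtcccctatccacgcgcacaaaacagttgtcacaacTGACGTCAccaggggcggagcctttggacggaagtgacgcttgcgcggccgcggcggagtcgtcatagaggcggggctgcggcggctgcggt
DUSP1: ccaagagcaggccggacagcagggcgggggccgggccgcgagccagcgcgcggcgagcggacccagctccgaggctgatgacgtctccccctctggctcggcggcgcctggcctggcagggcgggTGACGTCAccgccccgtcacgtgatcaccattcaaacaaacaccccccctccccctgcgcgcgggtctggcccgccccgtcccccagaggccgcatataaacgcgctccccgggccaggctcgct

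SYAP1 encodes synapse-associated protein 1, and its log2 levels were 7.48 and 7.92 with dexamethasone and 9.95 and 10.32 with the combination (2.43 ± 0.27, adjusted p = 0.00151). DUSP1 encodes a phosphatase that inactivates MAP kinases and is a known target of both cyclic AMP and glucocorticoids. Its levels of 6.49 and 6.84 against 7.25 and 7.63 gave 0.78 ± 0.167 (adjusted p = 0.0408, not without low dexamethasone replicate 1 or 2 or combination replicate 2), and the mean of its probe sets gave 0.39 (adjusted p = 0.099).

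The gene lists were chosen with earlier results of these data known, so the shares given below describe the lists and test nothing. Some genes are in several lists, as PDE4B and PDE3B are. Phosphodiesterases end the cyclic AMP signal by breaking it down. Of 10 phosphodiesterase genes measured, of 20 listed, 4 rose and 0 fell (40.0% higher, against 1.75% of all genes), with a median difference of 0.69 against 0.0019 for all genes. PDE4B, an enzyme specific for cyclic AMP, had levels of 5.96 and 7.11 with dexamethasone and 9.12 and 9.59 with the combination, so the groups stayed apart although the dexamethasone arrays differed by more than 1 (2.82 ± 0.342, adjusted p = 0.00263). PDE3B was at 3.22 on both dexamethasone arrays and at 4.82 and 6.40 with the combination, at least 3.05-fold (adjusted p = 0.0156). PDE7A went from 8.04 and 8.29 to 8.92 and 9.67 (1.13 ± 0.208, adjusted p = 0.0215), and PDE4A from 6.14 on both arrays to 7.14 and 7.25 (1.05 ± 0.225, adjusted p = 0.0394). PDE3B and PDE7A did not pass without low dexamethasone replicate 1 or 2, nor with no filter on low levels. PDE3B did not with levels under 4 raised to 4, and PDE4A passed in 0 of the 4 fits without 1 array. PDE4B was the one phosphodiesterase gene left without low dexamethasone replicate 1 or without replicate 2. PDE4D had levels of 3.83 and 3.50 against 5.78 and 5.68, at least 3.33-fold against a level of 4, which did not pass as fitted (adjusted p = 0.0911) and passed with levels under 4 raised to 4 (1.73, adjusted p = 0.00929).

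Of 8 RGS genes measured, RGS1 and RGS2 rose (25.0%, against 1.75% of all genes) and RGS19 fell (12.5%, against 1.64%). The median was -0.08. RGS1 and RGS2 encode proteins that speed the return of G-protein alpha subunits to their inactive state. RGS1 went from 11.02 and 10.97 to 14.05 and 14.33 (3.19 ± 0.174, 9.15-fold, adjusted p = 2.94e-05), and RGS2 from 8.14 and 8.26 to 9.49 and 9.29 (1.19 ± 0.113, adjusted p = 0.000566). The arrays within each group lay close together in both genes. RGS19 had levels of 7.66 and 7.48 against 6.99 and 6.88 (-0.63 ± 0.11, adjusted p = 0.017, not without low dexamethasone replicate 1 or combination replicate 2).

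Among 25 measured cyclic AMP and CREB targets of 43 listed, 5 rose and 0 fell (20.0% higher, against 1.75% of all genes), with a median of 0.30. The 5 were PDE4B, PDE3B, RGS2, SGK1 and DUSP1, and 3 of them, PDE4B, RGS2 and SGK1, were left without low dexamethasone replicate 1 or without replicate 2. CREM, whose short forms repress CREB targets, had levels of 4.75 and 5.33 against 5.48 and 5.58, a difference of 0.49 ± 0.356 (adjusted p = 0.621). Of 26 genes for protein kinase A subunits, adenylyl cyclases, CREB and its coactivators 0 passed, against 3.4% of all genes, a share at which a list of this size would hold few or no calls, and their median was 0.0244.

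Among the falls, C11orf96 had the largest difference, from 7.11 and 7.34 to 3.38 and 5.06, with combination arrays far apart and 1 of them under 4 (adjusted p = 0.00889; -2.70 with levels under 4 raised to 4). HDAC9, a class IIa histone deacetylase gene, went from 7.97 and 8.08 to 5.02 and 6.09 (-2.47 ± 0.368, adjusted p = 0.00832). Neither passed without low dexamethasone replicate 1 or 2. TMC5, of the transmembrane channel-like family, had combination levels of 3.26 and 4.45 against 5.91 and 6.34, a difference of -1.90 with levels under 4 raised to 4 (not without low dexamethasone replicate 2). OSBPL1A, a gene for a lipid-binding protein of late endosomes, was lower on both combination arrays, at 6.40 and 5.82 against 7.97 and 8.40 (-2.07 ± 0.223, adjusted p = 0.00126; -1.19 averaged over its probe sets). The noncoding RNA LINC00582 (-1.83 ± 0.226) and IRAG2, an endoplasmic reticulum membrane protein gene (-1.78 ± 0.235), had risen with dexamethasone alone by 1.56 and 1.96 and were lower again with the combination, at 5.66 and 5.67 and at 6.04 and 5.76.

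Other large falls were less firm. ATP8A1, a phospholipid flippase gene (-1.91), RASGRP3, an exchange factor for Ras and Rap (-1.69), and UBE2E2, a ubiquitin-conjugating enzyme gene (-1.56), did not pass without low dexamethasone replicate 1 or 2 or combination replicate 1. ANKRD16, an ankyrin repeat protein gene (-2.13), passed in 0 of the 4 fits. The integrin gene ITGA8 went from 8.03 and 8.70 to 6.84 and 6.86 (-1.52 ± 0.193, adjusted p = 0.0033). For ITGA8, 1 of 3 probe sets moved the opposite way.

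Of 29 measured genes known to be induced by glucocorticoids, of 42 listed, 7 rose (24.1%, against 1.75% of all genes) and 1 fell, with a median of 0.46, and 25 of the 29 differences were positive. TSC22D3 encodes GILZ, a glucocorticoid-induced leucine zipper protein, and is among the classical targets of the receptor. Its levels were 6.02 and 5.92 in untreated cells, 5.62 and 6.54 with CGS-21680 alone, 11.97 and 12.04 with dexamethasone and 13.95 and 13.76 with the combination. The last step is a difference of 1.85 ± 0.245 (3.6-fold, adjusted p = 0.00419), on top of 6.03 with dexamethasone alone. GADD45A, a stress-induced growth arrest gene, went from 8.31 and 8.71 to 10.31 and 10.70 (1.99 ± 0.19, adjusted p = 0.000566), and had a difference of 0.21 with dexamethasone alone that did not pass. SGK1, a kinase that promotes sodium transport and survival, went from 7.85 and 8.08 to 8.90 and 9.01 (0.99 ± 0.128, adjusted p = 0.00362). With dexamethasone alone SGK1 had a difference of -0.60 ± 0.128, which passed as a fall (limma, adjusted p = 0.0298).

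The other 4 genes of that list that rose did not pass in all 4 fits without 1 array. FBXO32, encoding the ubiquitin ligase subunit atrogin-1, went from 9.92 and 10.33 to 11.64 and 12.11 (1.75 ± 0.3, adjusted p = 0.0163, not without low dexamethasone replicate 1 or 2 or combination replicate 2). For FBXO32 the mean of 6 probe sets gave 0.60 (adjusted p = 0.108). The chemokine receptor gene CXCR4 had 13.01 and 13.16 against 14.22 and 14.31 (1.18 ± 0.19, adjusted p = 0.0123, not without the same 3 arrays). FKBP5, a co-chaperone that feeds back on the receptor, had 13.27 and 13.19 against 13.60 and 13.64 (0.39 ± 0.08, adjusted p = 0.0335) and passed in 0 of the 4 fits without 1 array, nor in the mean of its probe sets. DUSP1 was the remaining one, and KLF13 was the one that fell (-0.59, in 0 of the 4 fits). DDIT4, an inhibitor of mTOR signalling, rose by 8.26 with dexamethasone alone and had 13.37 and 13.53 against 14.21 and 14.10 with the combination, which did not pass (0.70 ± 0.389, adjusted p = 0.466). The arrays of DDIT4 differed most with CGS-21680 alone (standard deviation 1.075), against 0.113 with dexamethasone and 0.0799 with the combination. Its standard error thus includes spread from outside the groups compared. Without low dexamethasone replicate 1 or replicate 2, the 3 genes GADD45A, SGK1 and TSC22D3 of the list were left.

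In the BCL2 family 1 of 13 measured genes rose (7.69%, against 1.75% of all genes) and 0 fell. BCL2L11, whose product BIM triggers the mitochondrial death pathway, had levels of 9.55 and 9.59 in untreated cells, 10.50 and 10.57 with CGS-21680, 10.51 and 10.63 with dexamethasone and 11.95 and 12.17 with the combination. The groups with a single agent lay at about the same level, and both combination arrays above them (1.49 ± 0.112, 2.81-fold, adjusted p = 0.000218). The proapoptotic gene BMF rose by 1.86 with dexamethasone alone and was at 8.91 on both dexamethasone arrays and at 9.21 and 8.95 with the combination (0.17 ± 0.109, adjusted p = 0.554). The antiapoptotic genes MCL1 (-0.23 ± 0.0832, adjusted p = 0.222), BCL2L1 (-0.68 ± 0.199, adjusted p = 0.122) and BCL2 (-0.20 ± 0.192, adjusted p = 0.749) did not pass, but BCL2L1 passed as lower in the mean of its probe sets. Among 23 FOXO targets BCL2L11, FBXO32 and INSR rose (13.0%, against 1.75% of all genes) and 0 fell, with a median of 0.23. INSR, the insulin receptor gene, went from 10.65 and 10.44 to 11.85 and 11.52 (1.14 ± 0.135, adjusted p = 0.00237).

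Some genes that mark myeloma and plasma cells fell, among them IRF4, MYC, TNFRSF17 and SDC1. Of 33 measured of 40 listed, 0 rose and 7 fell (21.2%, against 1.64% of all genes), the median was -0.28, and 6 of 33 differences were positive. In RNA from whole cultures, fewer cells with a transcript and less transcript per cell cannot be told apart. IRF4, a lymphocyte transcription factor that myeloma cells need, had levels of 11.88 and 11.93 in untreated cells, 11.11 and 11.04 with CGS-21680, 10.72 and 10.97 with dexamethasone and 9.30 and 9.29 with the combination. The combination arrays were the lowest of these 8, with a difference of -1.55 ± 0.108 from dexamethasone alone (2.93-fold, adjusted p = 0.000134; -1.02 averaged over its probe sets). MYC, which drives growth and ribosome production, stood at 11.90 and 12.18 with dexamethasone and at 10.65 and 10.67 with the combination (-1.39 ± 0.123, 2.61-fold, adjusted p = 0.000422).

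Surface proteins used to recognise or target myeloma cells were among the falls. TNFRSF17, which encodes BCMA, went from 12.57 and 12.85 to 11.36 and 11.45 (-1.30 ± 0.133, adjusted p = 0.000888), and was at 11.09 and 11.29 with CGS-21680 alone, about the level of the combination. SDC1, encoding the plasma cell proteoglycan CD138, went from 12.92 and 13.08 to 12.17 and 11.99 (-0.92 ± 0.109, adjusted p = 0.00237). SLAMF7 (-0.96 ± 0.154, not without low dexamethasone replicate 1 or combination replicate 2), the orphan receptor gene GPRC5D (-0.79 ± 0.161, in 0 of the 4 fits) and POU2AF1, a B-cell coactivator gene (-1.04 ± 0.176, left only without combination replicate 1), were lower too. The plasma cell regulators PRDM1 (-0.52 ± 0.212, adjusted p = 0.284) and XBP1 (-0.53 ± 0.276, adjusted p = 0.435) and the surface enzyme gene CD38 (0.57 ± 0.292, adjusted p = 0.412) did not pass. Between 4 and 6 genes of the list fell in the fits without 1 array.

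**Figure D2:**
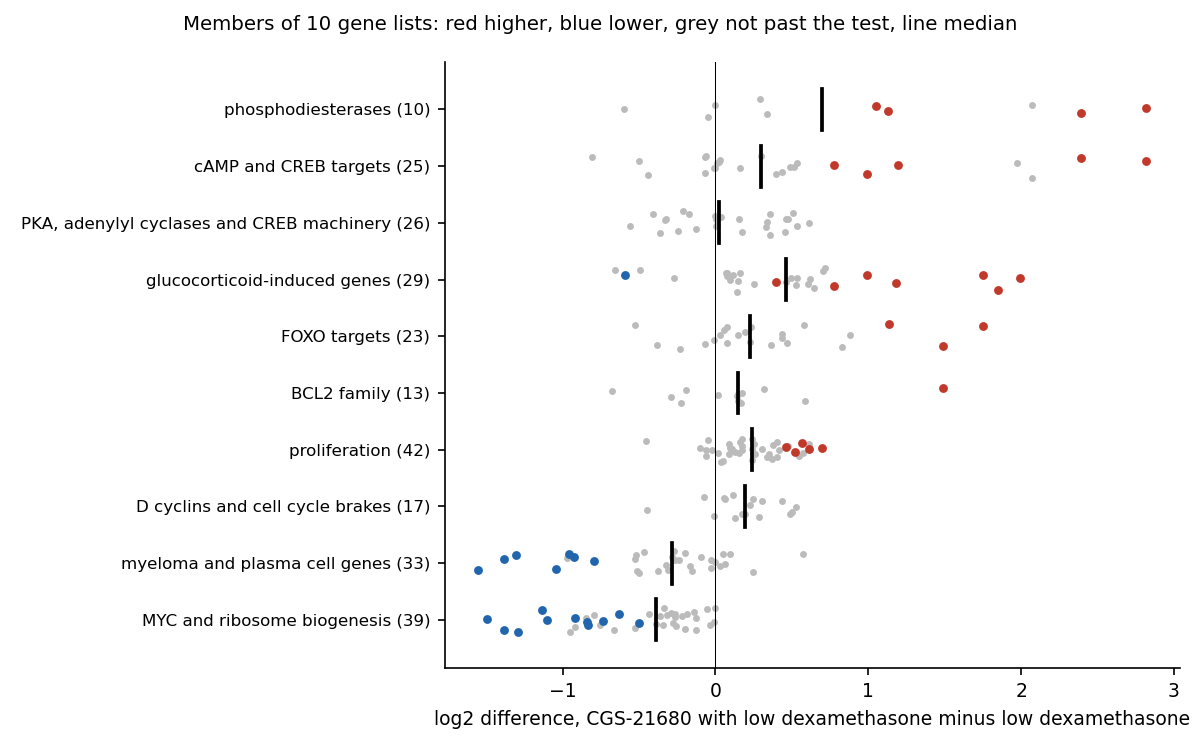
Difference between the combination and dexamethasone alone (log2) for the measured members of 10 gene lists, 1 point a gene, with the number measured after each name and a black line at the median. Red points rose, blue points fell and grey points did not pass; the medians run from 0.69 for phosphodiesterases to -0.39 for MYC and ribosome biogenesis.

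Among genes of MYC and ribosome biogenesis, MYC, WDR3 and DDX21 fell in every fit without 1 array. Of 39 measured of 45 listed, 0 rose and 11 fell (28.2%, against 1.64% of all genes), the median was -0.39, and 1 of 39 differences was positive. WDR3, a component of the complex that processes small-subunit ribosomal RNA, went from 7.24 and 7.29 to 5.84 and 5.70 (-1.49 ± 0.0951, 2.82-fold, adjusted p = 6.9e-05). DDX21, a nucleolar RNA helicase gene, went from 10.80 and 10.77 to 9.84 and 9.88 (-0.92 ± 0.12, adjusted p = 0.00392). The arrays within each group were close together in both genes, and MYC itself is the third member that fell in all 4 fits without 1 array.

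The other 8 members that fell were NOP16 (-1.10), WDR12 (-0.84), LYAR (-0.74), DDX10 (-1.14), PUS7 (-0.63), POLR1B (-0.83), TFRC (-1.29) and ODC1 (-0.50). These include the nucleolar assembly factors NOP16 and WDR12, the RNA polymerase I subunit gene POLR1B, the transferrin receptor gene TFRC and ODC1, the first enzyme of polyamine synthesis. NOP16 and WDR12 were left only without combination replicate 1, as was ODC1, LYAR and DDX10 only without combination replicate 2, and PUS7, POLR1B and TFRC in 0 of the 4 fits. Between 3 and 7 genes of the list fell in those fits, and with no filter on low levels the 4 genes DDX21, LYAR, MYC and WDR3 fell. The same 39 genes had a median of 0.0134 with CGS-21680 alone, where 0 passed, and of -0.53 with dexamethasone alone, where 10 fell; the last comparison uses the same dexamethasone arrays.

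A few replication genes passed, with small differences. Of 42 measured proliferation genes 5 rose and 0 fell (11.9% higher, against 1.75% of all genes), the median was 0.24, and 36 of 42 differences were positive. The 5 were MCM6 (0.70 ± 0.129), MCM5 (0.61 ± 0.126) and MCM2 (0.46 ± 0.102), subunits of the replicative helicase, its partner GINS2 (0.57 ± 0.118) and RRM1, the large subunit of ribonucleotide reductase (0.52 ± 0.0987). MCM6 had levels of 10.93 and 10.77 with dexamethasone and 11.49 and 11.60 with the combination, and both untreated arrays averaged 11.28. None of these 5 passed in all 4 fits without 1 array: MCM2 passed only without combination replicate 2 and the others in 0 of the 4 fits, and between 0 and 2 genes of the list passed in those fits. With no filter MCM6 and RRM1 were the 2 that passed. MCM6 and RRM1 also did not pass in the mean of their probe sets. With CGS-21680 alone the list had a median of 0.32 and 0 genes passed. Of 17 D cyclins and cell cycle brakes 0 passed, against 3.4% of all genes, and the median was 0.20. At that share a list of this size would hold few or no calls. CCND2, a D cyclin gene that was abundant here, had 12.29 and 12.60 against 12.52 and 12.49 (0.06 ± 0.136), so the arrays overlapped.

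Among adhesion genes ITGA8 fell in all 4 fits without 1 array. Of 24 integrin and adhesion genes ITGA8, ITGA4 and FRMD6 fell (12.5%, against 1.64% of all genes) and 0 rose, with a median of 0.0068. ITGA4 encodes the alpha-4 chain of VLA-4, by which myeloma cells bind stroma, and had 8.35 and 8.85 against 6.93 and 7.29 (-1.49 ± 0.31, adjusted p = 0.0362). FRMD6, a FERM domain protein gene, fell by 1.08 on the log2 scale. ITGA4 and FRMD6 passed in 0 of the 4 fits without 1 array, nor in the mean of their probe sets. CXCL10, an interferon-inducible chemokine gene, had 4.05 and 3.66 with dexamethasone and 5.84 and 5.97 with the combination (2.05 ± 0.435, adjusted p = 0.0385, in 0 of the 4 fits). Its differences were 3.35 with CGS-21680 alone and -1.93 with dexamethasone alone, and both passed. CXCL10 and CXCR4 were the 2 of 10 chemokines and receptors that rose (20.0%, against 1.75% of all genes), and neither passed in all 4 fits.

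Among 18 STAT and SOCS genes STAT4 and STAT6 rose (11.1%, against 1.75% of all genes), and 0 fell. STAT6, which mediates interleukin-4 signalling, had 7.94 and 7.93 against 8.71 and 8.54 (0.69 ± 0.133, adjusted p = 0.0254, in 0 of the 4 fits). In polyamine metabolism 3 of 13 genes passed, 15.4% higher and 7.69% lower, against 1.75% and 1.64% of all genes. SAT1 rose, the polyamine oxidase gene PAOX had a difference of 0.82 ± 0.171 and ODC1 one of -0.50 ± 0.115. PAOX passed in 0 of the 4 fits. SAT1 and PAOX break polyamines down, and ODC1 makes them. ODC1 was left only without combination replicate 1. The list had a median of -0.0555, and 6 of 13 differences were positive. In glycolysis and hypoxia PDK1, a kinase that blocks pyruvate entry into the citric acid cycle, fell from 11.81 and 12.03 to 10.21 and 10.61 (-1.51 ± 0.184, adjusted p = 0.00263). PFKFB3, which makes the activator of phosphofructokinase, went from 4.46 and 4.49 to 5.69 and 6.73 (1.73 ± 0.261, adjusted p = 0.00853, not without low dexamethasone replicate 1 or 2). The list has 32 measured genes, and the others did not pass. The calls are 3.12% higher and 3.12% lower, near the 1.75% and 1.64% of all genes.

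Of 24 amino acid response genes VLDLR and SLC38A2 passed as higher (8.33%, against 1.75% of all genes). VLDLR, a lipoprotein receptor gene, was below a level of 4 on all 4 arrays, at 2.49 and 2.48 against 3.29 and 3.32, so its difference of 0.82 has no fold, and it did not pass with levels under 4 raised to 4. SLC38A2, an amino acid transporter gene, had 11.45 and 11.48 against 11.88 and 12.18 (0.57 ± 0.109, adjusted p = 0.0254), was left only without combination replicate 1, and did not pass in the mean of its probe sets. DUSP1 was the 1 of 20 immediate early genes that rose (5.0%, against 1.75% of all genes). None passed of 16 heat shock and chaperone genes, 21 cholesterol and fatty acid synthesis genes, 17 interferon response genes, 19 NF-kappaB targets, 12 circadian clock genes or 10 metallothioneins. Since 3.4% of all genes passed, lists of these sizes would hold few or no calls.

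Markers of other cell types were set beside these values. Of 16 T and NK cell markers 2 were measured and 0 passed, 0 of 15 monocyte and macrophage markers were measured, 2 of 12 erythroid markers were measured and 0 passed. Of 16 stromal markers 5 were measured and VIM, the intermediate filament vimentin, rose from 11.26 and 11.25 to 13.56 and 13.35 (2.20 ± 0.173, adjusted p = 0.000273). That is 20.0% of the 5 markers, against 1.75% of all genes. The mean log2 level of these 5 was 7.51 and 7.5 with dexamethasone and 8.21 and 8.02 with the combination. Of the 4 stromal markers checked on all arrays, COL1A1 lay between 7.07 and 7.43 and COL1A2, COL3A1 and DCN were below the filter. The part of other cell types in the rise of VIM was not tested.

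The change with CGS-21680 was also measured without dexamethasone, between arrays that are not in the groups compared above. CGS-21680 alone changed 61 genes (0.656%), 36 of them upward and 25 downward. Across the 9301 genes the differences with and without dexamethasone correlated at a Pearson r of 0.472 and a Spearman rho of 0.338, over genes that are not independent. Of the 316 genes changed beside dexamethasone, 276 (87.3%) had the same sign with CGS-21680 alone, against 60.1% of all genes. Their median change in the direction of the call was 0.92 beside dexamethasone, where they were picked, and 0.34 without it. Of the 61 genes picked without dexamethasone, 53 had the same sign beside it, and their medians were 0.95 without and 0.80 beside it. In both comparisons 42 genes passed (13.3% of 316 and 68.9% of 61), 41 of them in the same direction. STAT4, TESC, RGS1, SAT1, PDE4B and RGS2 rose in both, and IRF4 and TNFRSF17 fell in both. When untreated replicate 1 was left out the count for CGS-21680 alone was 11, and when untreated replicate 2 was left out it was 17.

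**Figure D3:**
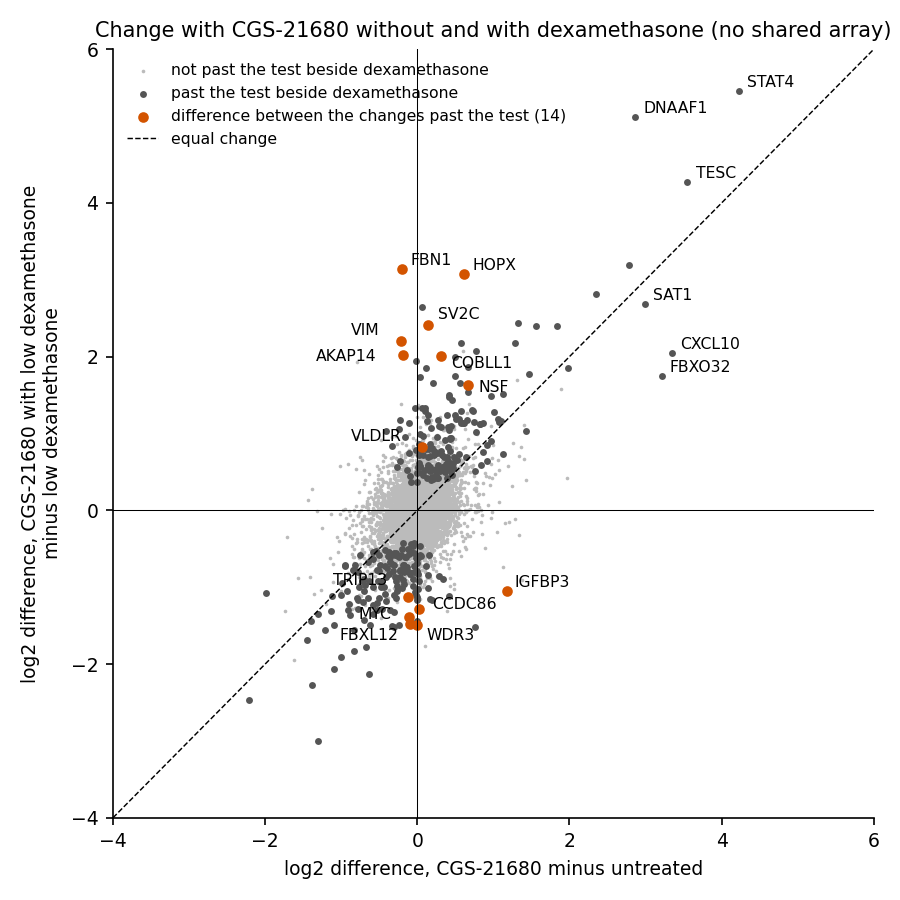
Difference with CGS-21680 beside dexamethasone (vertical axis, log2) against the difference with CGS-21680 alone (horizontal axis, log2), 1 point a gene, with a dashed line of equal change; dark points passed beside dexamethasone and light points did not. The 2 differences share no array; the 14 genes in orange are those whose 2 differences differed by the test, and IGFBP3, at 1.17 and -1.04, is the one with opposite calls.

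Whether the change differs with and without dexamethasone was tested as an interaction, the difference beside dexamethasone minus that without it. It passed for 14 genes (0.151%), 8 with a positive (0.086%) and 6 with a negative interaction (0.0645%), and in 591 genes at an unadjusted p under 0.05. Leaving out untreated replicate 1 gave 2 genes and leaving out untreated replicate 2 gave 4; the count was 7 without either low dexamethasone replicate 2 or CGS-21680 replicate 1, and 9 without low dexamethasone replicate 1. With the spread taken from the 8 arrays alone it was 0 (smallest adjusted p = 0.0633, 646 genes at an unadjusted p under 0.05). FBN1 and WDR3 were the 2 genes whose interaction passed in all 8 fits without 1 array.

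FBN1 was at 3.63 on both untreated arrays, at 3.63 and 3.23 with CGS-21680, at 4.75 and 4.96 with dexamethasone and at 7.88 and 8.12 with the combination, which gave an interaction of 3.34 ± 0.251 (adjusted p = 0.00212). It was thus high on the combination arrays only, of these 8. VIM had the same order, at 10.52 and 10.29, 10.49 and 9.90, 11.26 and 11.25, and 13.56 and 13.35 in the same 4 groups (2.41 ± 0.245, adjusted p = 0.00924, not without untreated replicate 1). HOPX (2.46 ± 0.347), SV2C (2.27 ± 0.293) and AKAP14, an anchoring protein gene of protein kinase A (2.21 ± 0.304), had positive interactions that passed in 2, 1 and 0 of the 8 fits. Their levels outside the combination lay near or below 4, and with levels under 4 raised to 4 the interactions were 1.85 (adjusted p = 0.0453), 2.29 (adjusted p = 0.00146) and 0.95 (adjusted p = 0.108); that of FBN1 was 3.14. AKAP14 had 2.96 and 2.89 with dexamethasone and 4.84 and 5.06 with the combination, at least 1.93-fold.

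WDR3 was at 8.17 and 7.99 in untreated cells, 8.02 and 8.12 with CGS-21680, 7.24 and 7.29 with dexamethasone and 5.84 and 5.70 with the combination (-1.49 ± 0.135, adjusted p = 0.00551). Both arrays with CGS-21680 alone lay between the untreated arrays, and both combination arrays were the lowest. MYC was at 12.49 and 12.50 in untreated cells and at 12.41 and 12.36 with CGS-21680 alone (interaction -1.28 ± 0.174, adjusted p = 0.0338), and passed in 1 of the 8 fits, without low dexamethasone replicate 1. CCDC86, a nucleolar protein gene, had 10.86 and 10.76, 10.95 and 10.73, 9.02 and 8.98, and 7.80 and 7.62 in the same order of groups (-1.31 ± 0.155, adjusted p = 0.0175, in 3 of the 8 fits). FBXL12, an F-box protein gene of ubiquitin ligases, rose by 0.86 with dexamethasone alone and was at 7.57 and 7.54 with the combination (-1.38 ± 0.149, adjusted p = 0.0103, in 5 of the 8 fits).

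IGFBP3, a binding protein of insulin-like growth factors, was the 1 gene that passed in both comparisons with opposite signs. It rose with CGS-21680 alone, from 7.92 and 7.99 to 9.21 and 9.05 (1.17), and fell beside dexamethasone, from 5.32 and 5.89 to 4.66 and 4.47 (-1.04 ± 0.164, adjusted p = 0.0108, not without combination replicate 2, and -0.61 averaged over its probe sets, at an adjusted p of 0.149). The interaction was -2.22 ± 0.231 (adjusted p = 0.00924, not without untreated replicate 1 or 2).

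For other genes described above the interaction did not pass. Those of DNAAF1 (2.25 ± 0.34, adjusted p = 0.0513) and INSR (1.24 ± 0.191, adjusted p = 0.0555) lay just above the threshold of 0.05. GADD45A had an interaction of 1.49 ± 0.269 (adjusted p = 0.105). BCL2L11 had an interaction of 0.52 ± 0.159 (adjusted p = 0.496), TSC22D3 one of 1.74 ± 0.346 (adjusted p = 0.144), IRF4 one of -0.72 ± 0.153 (adjusted p = 0.187) and STAT4 one of 1.23 ± 0.406 (adjusted p = 0.546). RGS1 (0.41 ± 0.246), RGS2 (0.13 ± 0.16), PDE4B (0.47 ± 0.483), SAT1 (-0.30 ± 0.318) and TNFRSF17 (-0.16 ± 0.188) had interactions within 2 standard errors of 0.

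**Figure D4:**
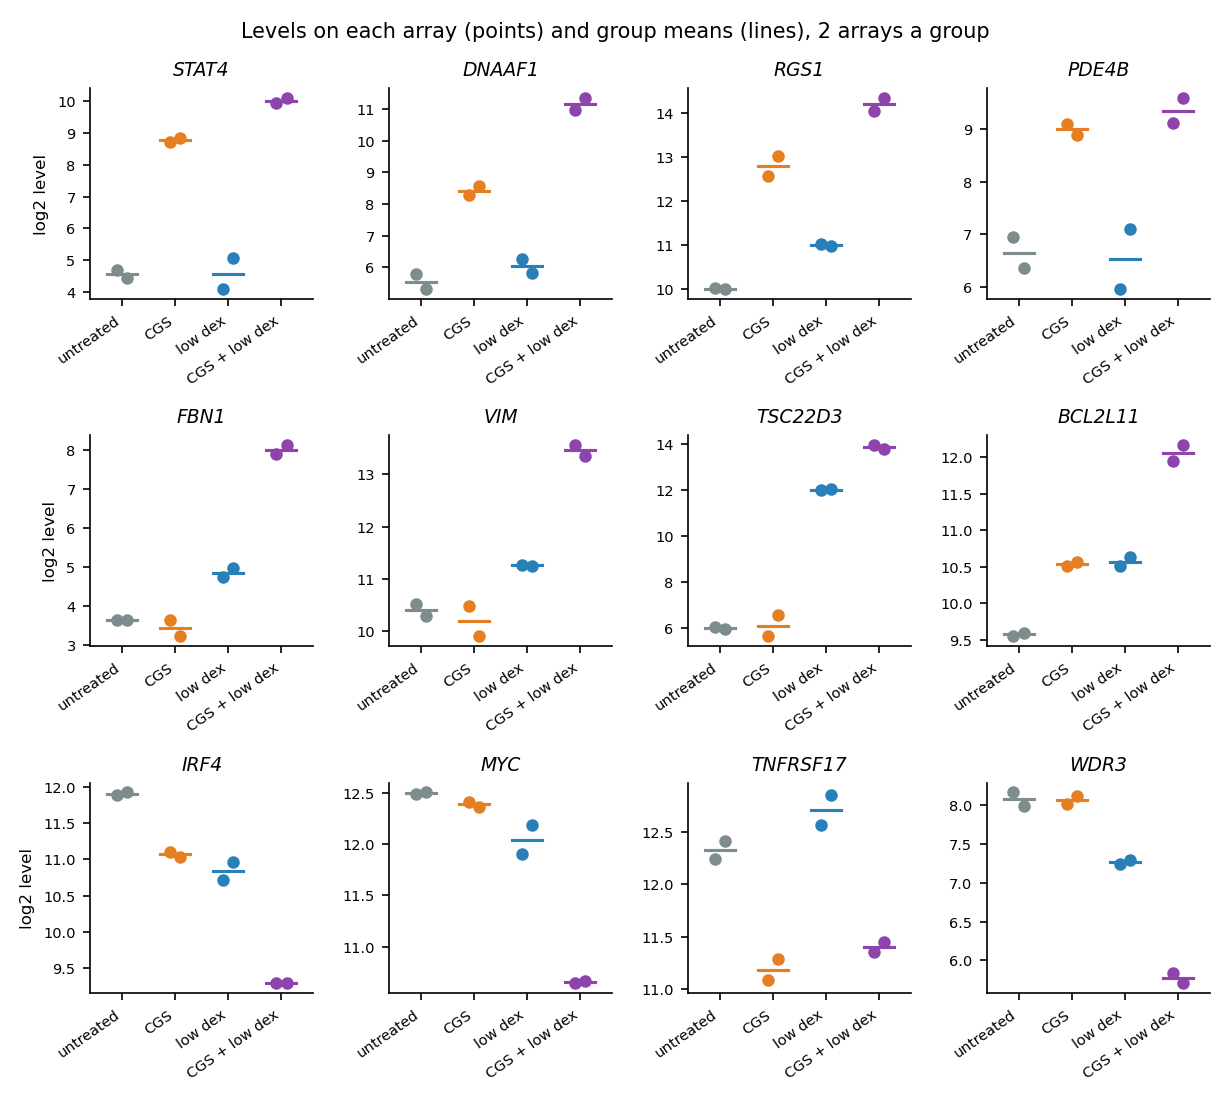
Log2 level of 12 genes on each array (points) with the group mean (line), in untreated cells, with CGS-21680 (CGS), with 25 nM dexamethasone (low dex) and with the combination; each panel has its own vertical axis, which does not start at 0. STAT4, RGS1 and PDE4B were high in both groups with CGS-21680, FBN1 and VIM were highest with the combination, and IRF4, MYC and WDR3 were lowest with it.

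Salmeterol stimulates the beta-2 adrenoceptor, which raises cyclic AMP too, and was given at 1 nM beside the same 25 nM dexamethasone. Against dexamethasone alone it changed 1341 genes (14.4%), 585 upward (6.29%) and 756 downward (8.13%). The doses of the 2 agonists differ, so the comparison is between these treatments and not between the receptors. The combination with CGS-21680 differed from that with salmeterol in 112 genes (1.2%), being higher in 49 (0.527%) and lower in 63 (0.677%). The count was 42 without salmeterol replicate 1, 53 without the CGS-21680 combination replicate 1, 56 without salmeterol replicate 2 and 82 without the CGS-21680 combination replicate 2. It was 0 with the spread taken from these 4 arrays alone (smallest adjusted p = 0.274, 974 genes at an unadjusted p under 0.05).

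Several of the genes that rose most with CGS-21680 stood lower than with salmeterol. FGL2 was at 4.24 and 5.86 with CGS-21680 and at 9.45 and 9.76 with salmeterol (-4.55 ± 0.389, adjusted p = 0.000732), and SAT1 at 9.28 and 9.60 and at 12.23 and 12.07 (-2.71 ± 0.225, adjusted p = 0.000646). DNAAF1 (-2.24 ± 0.24), HOPX (-2.11 ± 0.245), TESC (-1.71 ± 0.126) and GADD45A (-1.39 ± 0.19) were lower as well. WFDC21P, a pseudogene transcript, had 2.30 and 3.04 with CGS-21680, near the floor, and 7.83 and 8.27 with salmeterol, at least 16.5-fold. CHST2, a sulfotransferase gene, had 4.32 and 5.40 against 8.79 and 8.60 (-3.84 ± 0.316, adjusted p = 0.000646), and IRAK2, a kinase gene of interleukin-1 signalling, was at least 2.41-fold lower. WFDC21P and IRAK2 reached a level of 4 only on the 2 arrays with salmeterol and dexamethasone. The filter thus kept them because of that group, and they were tested in only 2 of the fits without 1 array. Neither WFDC21P, CHST2 nor IRAK2 changed when CGS-21680 was added to dexamethasone (adjusted p = 0.459, 0.244 and 0.823).

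MYC and IRF4, which CGS-21680 lowered, stood higher than with salmeterol. MYC was at 10.65 and 10.67 with CGS-21680 and at 9.42 and 9.63 with salmeterol (1.13 ± 0.123, adjusted p = 0.0025), and IRF4 at 9.30 and 9.29 and at 8.79 and 8.66 (0.57 ± 0.108, adjusted p = 0.044). DEPTOR, an inhibitor of mTOR that is abundant in myeloma, had 11.04 and 11.30 with dexamethasone, 9.66 and 10.12 with CGS-21680 and 8.22 and 8.69 with salmeterol, so the 3 groups did not overlap. Its difference between the agonists was 1.44 ± 0.187 (adjusted p = 0.00661, not without salmeterol replicate 1), and its fall with CGS-21680 was -1.29 ± 0.187 (adjusted p = 0.00743, not without low dexamethasone replicate 2). ITGA8 (1.24 ± 0.193), the pyrimidine breakdown enzyme gene DPYD (1.45 ± 0.251), the fractalkine receptor gene CX3CR1 (1.47 ± 0.282) and the glycan synthesis gene CSGALNACT1 (1.58 ± 0.254) were higher with CGS-21680, in 0, 1, 1 and 2 of the 4 fits without 1 array. CSGALNACT1 had not passed against dexamethasone alone (adjusted p = 0.276), and the lowered genes WDR3 (adjusted p = 0.353), OSBPL1A (adjusted p = 0.867) and PDK1 (adjusted p = 0.096) did not pass between the agonists. With salmeterol DPYD was at 2.38 and 3.06, both under 4, so its difference between the agonists is better read as at least 1.13-fold. DPYD and CX3CR1 had differences of -1.43 ± 0.251 and -1.51 ± 0.282 from dexamethasone alone. DPYD passed in 0 of the 4 fits without 1 array of that comparison, and CX3CR1 not without low dexamethasone replicate 1 or 2 or combination replicate 1.

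For some of the same genes the difference between agonists did not pass. RGS1 had 14.05 and 14.33 with CGS-21680 and 14.16 and 14.39 with salmeterol, overlapping arrays and a difference of -0.08 (95% interval -0.47 to 0.31). TSC22D3 had a difference of -0.24 (-0.79 to 0.31), BCL2L11 one of -0.28 (-0.53 to -0.03) and PDE4B one of -1.0 (-1.77 to -0.23), with adjusted p = 0.88, 0.417 and 0.295. STAT4, at -1.10 ± 0.287, did not pass either (adjusted p = 0.142).

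**Figure D5:**
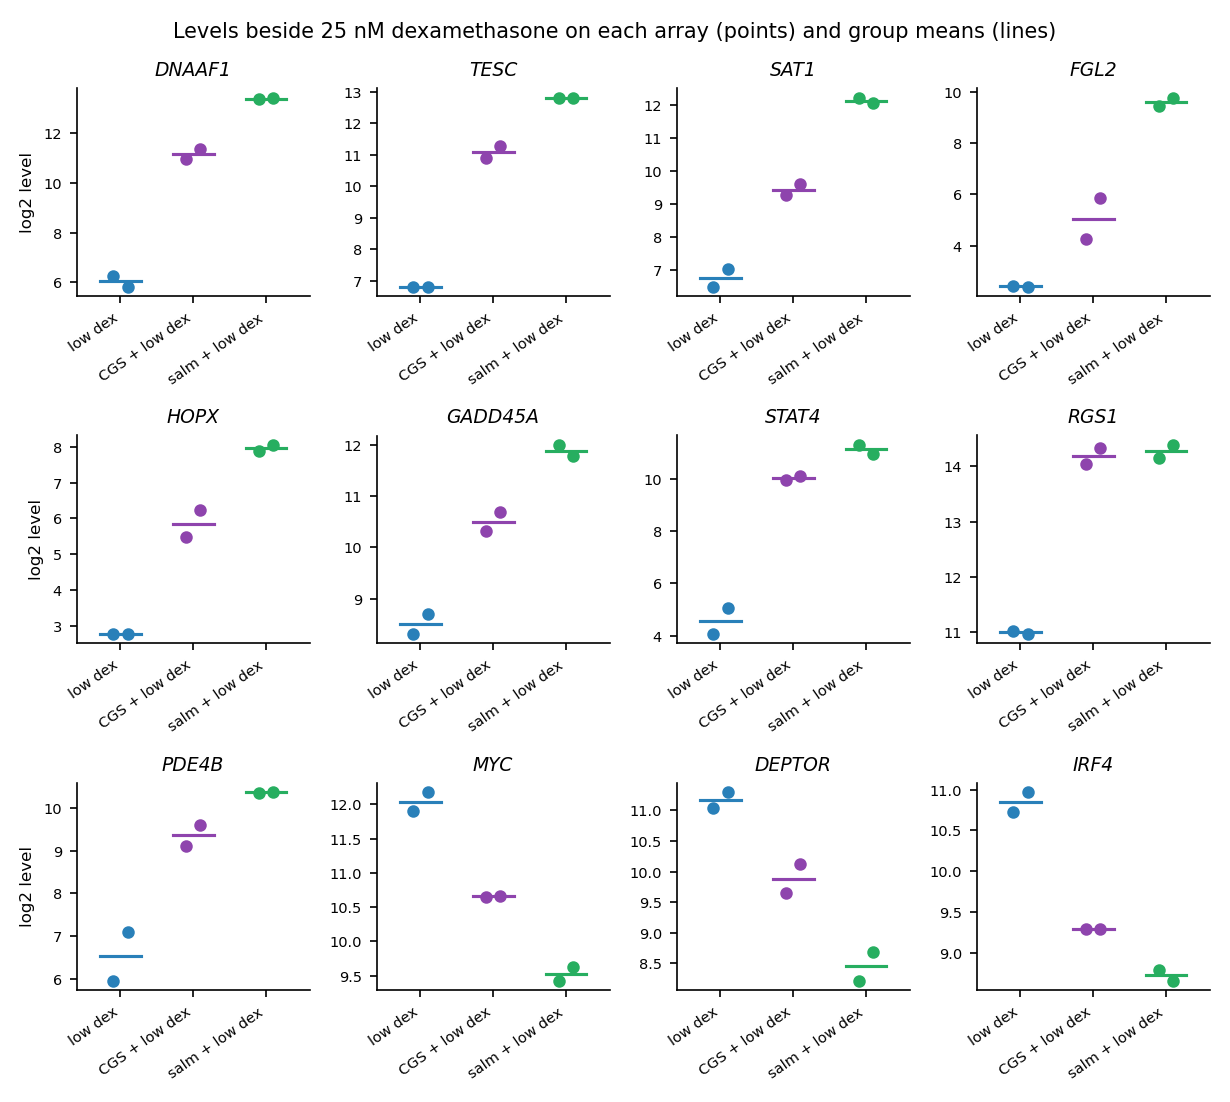
Log2 level of 12 genes on each array (points) with the group mean (line), with 25 nM dexamethasone (low dex), with CGS-21680 and dexamethasone (CGS + low dex) and with salmeterol and dexamethasone (salm + low dex); each panel has its own vertical axis, which does not start at 0. In DNAAF1, TESC, SAT1, FGL2, HOPX and GADD45A both CGS-21680 arrays lay between the other groups, and in RGS1 they overlapped with salmeterol.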

How the data were processed

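RNA of MM1S cells was hybridised to 14 Affymetrix arrays, 2 for each of 7 groups. The authors deposited GCRMA intensities, with GCRMA named in the submitters' processing notes. The scale of the deposited intensities was taken as linear from their values, which share a floor of 4.879 (log2 2.286), and their log2 was used. No source used here gives its version or settings.

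Of 54675 probe sets, 41097 were paired with 1 gene symbol, 1801 with several and 11777 with none in the annotation table. Those with 1 symbol and a log2 level of at least 4 on at least 2 arrays were kept (15606), and each gene took its probe set with the highest mean, which left 9301 genes. limma 3.58.1 (R 4.3.3) was fitted with 7 group means over 14 arrays (lmFit, contrasts.fit, eBayes; 7 residual and 2.3 prior degrees of freedom), two-sided, with Benjamini-Hochberg adjustment over all genes and a threshold of 0.05. An exact permutation test of 2 against 2 arrays cannot go below p = 0.333. The number of arrays limits the precision. The calculation was tested on simulated data.

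The members, gene lists, preset genes and comparisons were chosen with earlier results of these data known. The text names the 12 largest rises and falls, up to 3 changed members of each list, the 5 largest of each direction in the interaction and the comparison with salmeterol, and preset genes. Other list members are named beside their counts after their values were seen. Levels under 4 were set to 4 for folds written as at least. Alternatives were the arrays in the fit, a replicate block, filters, quantile normalization, probe set means, the moderation, raised low levels and leaving out each array. Promoter sequences are RefSeq's, for GRCh38.p14, matched by Entrez gene identifier.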

Additional observations from a re-analysis of the deposited data

Results flagged for a closer look

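The change with CGS-21680 differed with and without dexamethasone, by a test of the difference itself, in 14 genes. The log2 interactions were 3.34 for FBN1, 2.46 for HOPX, 2.41 for VIM, 2.27 for SV2C and 2.21 for AKAP14. They were 1.71 for COBLL1, 0.96 for NSF and 0.76 for VLDLR, whose levels were below 4 on both arrays of both dexamethasone groups. On the other side they were -1.01 for TRIP13, -1.28 for MYC, -1.31 for CCDC86, -1.38 for FBXL12, -1.49 for WDR3 and -2.22 for IGFBP3. HOPX, SV2C and AKAP14 also had levels near or below 4 outside the combination. With levels under 4 raised to 4, the interactions of AKAP14 (0.95, adjusted p = 0.108) and VLDLR did not pass. NSF, which encodes a factor for membrane fusion, was at 8.14 and 8.03 in untreated cells and at 8.75 on both arrays with CGS-21680, and rose by 1.63 ± 0.0997 beside dexamethasone. TRIP13, an ATPase of the mitotic checkpoint, fell beside dexamethasone (-1.13 ± 0.101). AKAP14, NSF, VLDLR and TRIP13 passed in 0 of 8 fits when single arrays were removed, and COBLL1 passed in 2 of them.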

How the results depend on the processing

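With the spread estimated only from the arrays compared, 0 genes passed for CGS-21680 beside dexamethasone, for the interaction, for the comparison with salmeterol and for CGS-21680 alone (limma, smallest adjusted p = 0.147, 0.0633, 0.274 and 0.273; 1342, 646, 974 and 780 genes at an unadjusted p under 0.05), 12 for dexamethasone alone and 549 for salmeterol beside dexamethasone. In the fits without 1 array the counts lay between 99 and 198 of 316 beside dexamethasone, between 2 and 16 for the interaction, 42 and 82 against salmeterol, 11 and 45 for CGS-21680 alone, 187 and 221 for dexamethasone alone, and 725 and 941 for salmeterol beside dexamethasone. The interaction gave 22 genes with the replicate block, 24 with no filter and 22 with probe set means, and dexamethasone alone gave 281 with no filter, where 19775 genes were tested. Beside dexamethasone 211 genes passed with no filter, of which 169 were among the 316, 316 with a filter at log2 6 (285 shared), 312 with quantile normalization (280), 300 with probe set means (251), 325 with trended and robust moderation (300) and 322 with low levels raised to 4 (309). Deviations of same-numbered arrays correlated between -0.173 and 0.255 over 21 pairs of groups, and at 0.205 between dexamethasone alone and the combination. The replicate block gave 355 genes (293 shared). Whether arrays with the same replicate number share a batch was not tested. Without combination replicate 2 the difference of IRAK2 turned to -0.12 (0.52 without combination replicate 1), and without low dexamethasone replicate 1 that of CCND2 to -0.0926 (0.22 without replicate 2). Neither passed in any of these fits. With no filter FAAH2, ANKRD16, ATP8A1, UBE2E2, PDE3B, PDE7A, MCM5, FBXO32, CXCL10, ITGA4, FRMD6, STAT6, PAOX, ODC1, DUSP1, DPYD and CX3CR1 did not pass, and with a filter at log2 6 or quantile normalization FKBP5 and ODC1 did not. The cause was not tested. Levels near the floor limit what can be said of low genes.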

Other observations

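Some genes outside the lists and the naming rule, chosen after their values were seen, also changed beside dexamethasone in all 4 fits that left out 1 array. TGFB1, a growth factor gene, had 8.36 and 8.25 with dexamethasone and 10.03 and 10.31 with the combination (1.86 ± 0.159, adjusted p = 0.00034), and SQSTM1, the autophagy receptor p62, went from 10.50 and 10.67 to 11.95 and 12.31 (1.54 ± 0.129, adjusted p = 0.00034). IL10RA, a receptor chain for interleukin-10, went from 7.73 and 7.95 to 8.93 and 9.30 (1.28 ± 0.131, adjusted p = 0.00089). FAT1, an atypical cadherin gene, was higher on both combination arrays, at 10.63 and 10.99 against 8.38 and 8.88.

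On the side of the falls, BACH2, a repressor of plasma cell differentiation, went from 8.38 and 8.18 to 6.57 and 7.0 (-1.50 ± 0.138, adjusted p = 0.000489). CSF2RB, the shared receptor chain for interleukin-3, interleukin-5 and GM-CSF, went from 10.40 and 10.55 to 9.02 and 9.07 (-1.43 ± 0.127, adjusted p = 0.000422), and the forkhead factor gene FOXP2 from 5.55 and 6.03 to 4.13 and 4.45 (adjusted p = 0.00447). In the other direction, POLR1E, an RNA polymerase I subunit gene, rose from 8.05 on both arrays to 9.08 and 9.35 (1.17 ± 0.142, adjusted p = 0.00263). The subunit gene POLR1B, named above, was lower.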
